A study of Canis lupus familiaris with 4 samples.

Results

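Collagen is hydroxylated inside the cell and cross-linked outside it, and 8 genes of these steps were chosen here: the collagen prolyl 4-hydroxylase genes P4HA1, P4HA2 and P4HB, the lysyl hydroxylase genes PLOD1, PLOD2 and PLOD3, and the lysyl oxidase genes LOX and LOXL2. The members were all probe sets that carry 1 of these symbols in the platform annotation, which gave 23 of 42924 probe sets. They cover 7 of the 8 genes. PLOD2 was not analysed here, because none of the probe sets named for this work carries its symbol.

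The cells were MDCKII, an established epithelial line from dog kidney. The 4 groups are the array labelled KD hypoxia (HIF1A knocked down, hypoxia), the array labelled WT hypoxia (HIF1A WT, hypoxia), the array labelled KD normoxia (HIF1A knocked down, normoxia) and the array labelled WT normoxia (HIF1A WT, normoxia). All groups spent 24 h in normoxia first and another 24 h in the labelled condition. Each group had 1 array, so no difference has a replicate check. The sources used here do not give how the knockdown was made, whether the cells are 1 clone, or the oxygen level. The study compared gene expression by HIF1A status and by oxygen.

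HIF1A mRNA went against the knockdown label. The intensity of its brightest probe set was 625 in the array labelled KD hypoxia, 675 in the array labelled WT hypoxia, 3435 in the array labelled KD normoxia and 3651 in the array labelled WT normoxia. It was low in both arrays labelled hypoxia and nearly equal between KD and WT, so each direction given here follows the labels, whatever the arrays hold. Exchanging the labels of the arrays called KD normoxia and WT hypoxia would exchange the genotype and oxygen comparisons.

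Prolyl 4-hydroxylase turns prolines of procollagen into hydroxyprolines, which keep the triple helix stable at body temperature. Its catalytic alpha subunits (P4HA1, P4HA2) need oxygen, iron, 2-oxoglutarate and ascorbate, and its beta subunit (P4HB) is protein disulfide isomerase, a folding enzyme with many other substrates. The PLOD enzymes hydroxylate lysines of collagen, and the copper enzymes LOX and LOXL2 oxidise lysines of secreted collagen and elastin so that cross-links form. P4HA1, P4HA2, PLOD2 and LOX are known as targets of HIF in other mammalian cells.

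The values are intensities on a linear scale, and differences are of log2(intensity + 16), which understates the change of dim probe sets. The median of all values, an intensity of 46.3, served as the floor. A value below it is printed, but the size of a difference that rests on it was not measured. Of the 23 probe sets, 16 were at or above the floor in all 4 arrays, 3 in some arrays and 4 in none. The last 4 belong 1 each to P4HA1, P4HA2, PLOD1 and LOXL2, and no difference is given for them. Each gene is represented by its brightest probe set, and all 7 of these were above the floor in every array. Levels of different genes are not compared, since each probe set has its own response.

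**Figure D1:**
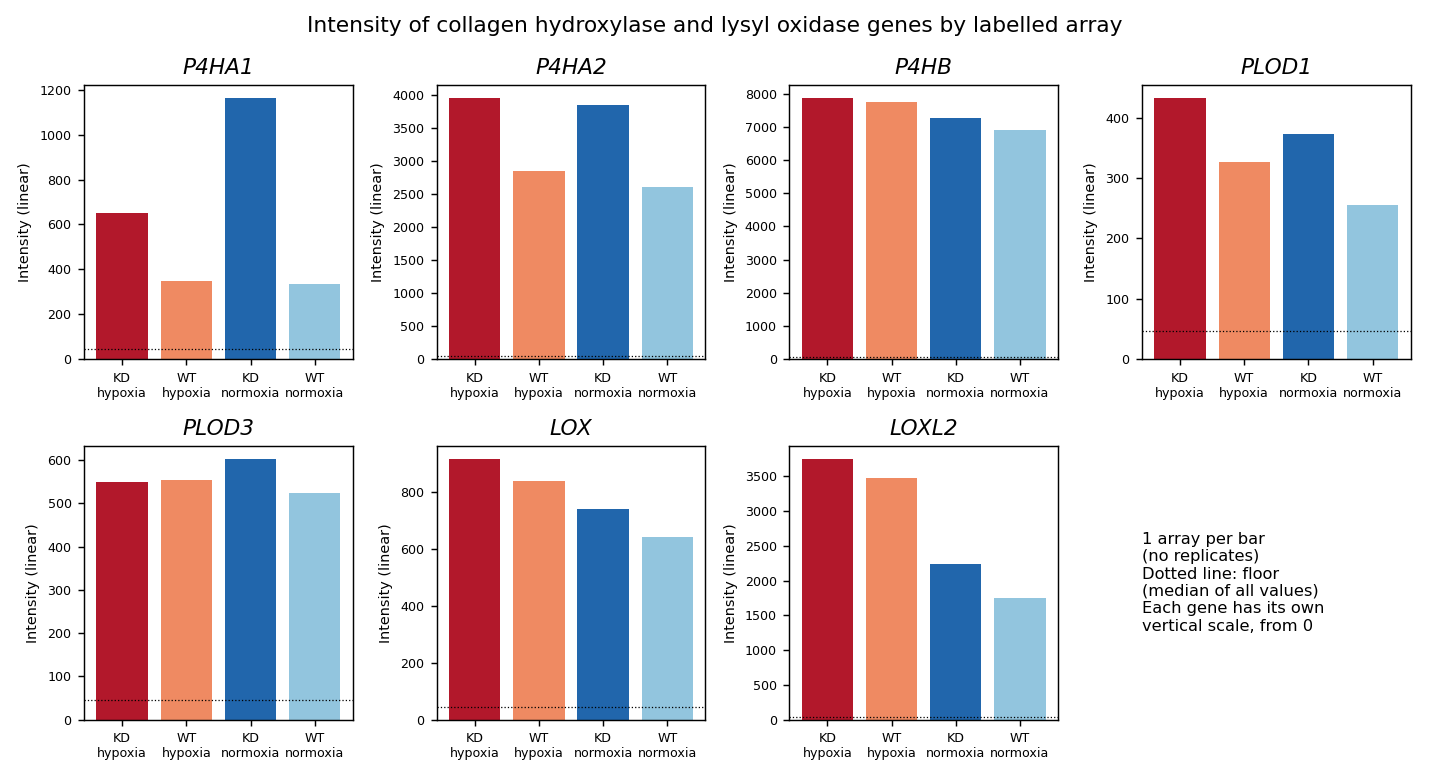
Intensity (linear scale, from 0) of the brightest probe set of each of the 7 measured genes, with 1 bar for each of the 4 arrays and the floor as a dotted line. P4HA1 stands out in the array labelled KD normoxia at 1164, P4HA2 is higher in both arrays labelled KD, and LOXL2 is higher in both arrays labelled hypoxia.

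P4HA1, the catalytic subunit of the main form of the enzyme in most cells, had the widest range of the 7 genes. Its intensity was 649 in the array labelled KD hypoxia, 347 in the array labelled WT hypoxia, 1164 in the array labelled KD normoxia and 335 in the array labelled WT normoxia. Both arrays labelled KD were above both arrays labelled WT, and the 2 arrays labelled WT differed from each other by 0.05 on the log2 scale. In normoxia, labelled KD minus WT was 1.75 (3.36-fold), which placed P4HA1 at rank 12 of 9834 genes above the floor. In hypoxia it was 0.88 (1.83-fold, rank 78). In cells labelled KD, hypoxia minus normoxia was -0.83, and in cells labelled WT it was 0.05. The response labelled KD minus the response labelled WT was therefore -0.87, a value that uses all 4 arrays and could not be tested.

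The other P4HA1 probe sets that reached the floor also had both KD arrays over both WT arrays. The second read 406 in the array labelled KD hypoxia, 217 in the array labelled WT hypoxia, 628 in the array labelled KD normoxia and 228 in the array labelled WT normoxia. Its labelled KD minus WT differences were 1.40 in normoxia and 0.86 in hypoxia, and its response labelled KD minus the response labelled WT was -0.54. The third read 64.3 in the array labelled KD hypoxia, 35.7 in the array labelled WT hypoxia, 82.1 in the array labelled KD normoxia and 34.9 in the array labelled WT normoxia. Both of its WT values fell short of the floor, which leaves its differences without a measured size. In labelled WT cells the hypoxia minus normoxia difference was 0.05 in the brightest probe set and -0.07 in the second, so its sign depended on the probe set.

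P4HA2, the other catalytic subunit on this list, was higher in both arrays labelled KD. Its brightest probe set read 3949.7 in the array labelled KD hypoxia, 2841 in the array labelled WT hypoxia, 3844 in the array labelled KD normoxia and 2602 in the array labelled WT normoxia. The 2 arrays labelled KD lay close together, at a hypoxia minus normoxia difference of 0.04, and both exceeded the arrays labelled WT. The excess of labelled KD over WT was 0.56 in normoxia (1.47-fold) and 0.47 in hypoxia (1.39-fold). All 4 P4HA2 probe sets above the floor in every array were higher in the KD array of each pair, by 0.47 to 1.05 in normoxia and by 0.25 to 0.76 in hypoxia.

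The dimmest of these 4 P4HA2 probe sets differed from the others in its oxygen difference. It read 209.8 in the array labelled KD hypoxia, 118 in the array labelled WT hypoxia, 147 in the array labelled KD normoxia and 62.8 in the array labelled WT normoxia. Its hypoxia minus normoxia difference was 0.47 in labelled KD cells and 0.76 in labelled WT cells, against 0.04 and 0.13 in the brightest probe set. A further probe set read 105 in the array labelled KD hypoxia and 82.3 in the array labelled KD normoxia, while its WT values, 39.2 with hypoxia and 35.4 with normoxia, were both below the floor.

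P4HB, the beta subunit, spanned 0.19 over the 4 arrays. It read 7873 in the array labelled KD hypoxia, 7761 in the array labelled WT hypoxia, 7272 in the array labelled KD normoxia and 6897 in the array labelled WT normoxia. The arrays labelled hypoxia were slightly above those labelled normoxia, by 0.11 in labelled KD cells and 0.17 in labelled WT cells. Its dimmer probe sets did not have this order: over all 3, hypoxia minus normoxia ran from -0.25 to 0.11 in labelled KD cells and from -0.15 to 0.17 in labelled WT cells. The alpha subunit genes thus differed between labelled KD and WT by more than the beta subunit gene, whose labelled KD minus WT differences were 0.08 in normoxia and 0.02 in hypoxia.

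**Figure D2:**
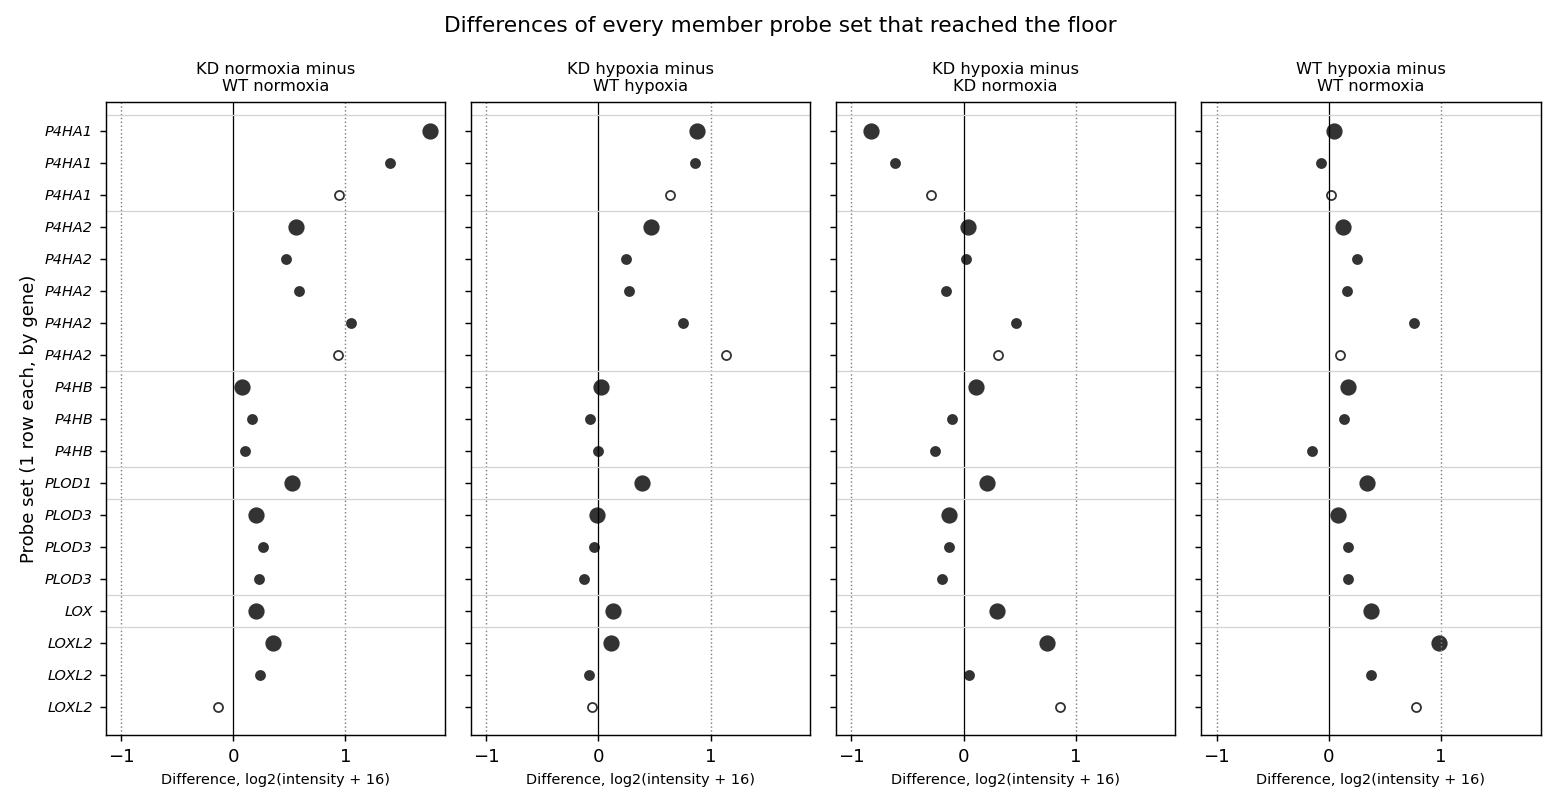
Difference of log2(intensity + 16) in 4 comparisons of 2 arrays for each of the 19 member probe sets that reached the floor in at least 1 array, 1 row per probe set. Large points are the brightest probe set of a gene, open points have a value below the floor, and dotted lines mark 2-fold; the filled P4HA1 and P4HA2 points lie right of 0 in both labelled KD minus WT panels, and the LOXL2 points lie right of 0 in both hypoxia minus normoxia panels.

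PLOD1, a lysyl hydroxylase that acts mainly on the helical part of collagen, read 433 in the array labelled KD hypoxia, 326 in the array labelled WT hypoxia, 372 in the array labelled KD normoxia and 255 in the array labelled WT normoxia. Both arrays labelled KD were above both labelled WT, and within each genotype label hypoxia was above normoxia. The excess of labelled KD over WT was 0.52 in normoxia and 0.39 in hypoxia, and labelled hypoxia minus normoxia was 0.21 in KD and 0.34 in WT cells. These rest on 1 probe set, since the other PLOD1 probe set lay below the floor in all 4 arrays.

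PLOD3, which also has glycosyltransferase activity toward hydroxylysine, spanned 0.20. It read 549 in the array labelled KD hypoxia, 554 in the array labelled WT hypoxia, 603 in the array labelled KD normoxia and 522 in the array labelled WT normoxia. The array labelled KD normoxia was the highest in each of its 3 probe sets. Labelled KD minus WT lay between 0.20 and 0.27 in normoxia and between -0.13 and -0.01 in hypoxia over these probe sets. For the brightest probe set, the value of -0.01 turned positive with median centring and with cyclic loess.

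LOX read 919 in the array labelled KD hypoxia, 840.0 in the array labelled WT hypoxia, 743 in the array labelled KD normoxia and 644 in the array labelled WT normoxia. Both arrays labelled hypoxia were above both labelled normoxia, by 0.30 in labelled KD cells and 0.37 in labelled WT cells. The excess of labelled KD over WT was 0.20 in normoxia and 0.13 in hypoxia. LOX has 1 probe set, so no second probe set bears on these values.

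LOXL2, a lysyl oxidase that also acts on basement membrane collagen, had the widest oxygen difference of the 7 genes in labelled WT cells. It read 3752 in the array labelled KD hypoxia, 3476 in the array labelled WT hypoxia, 2238 in the array labelled KD normoxia and 1747 in the array labelled WT normoxia. Both arrays labelled hypoxia were well above both labelled normoxia, while KD and WT lay closer together within each oxygen label. Labelled hypoxia minus normoxia was 0.74 in KD cells (1.67-fold, rank 152 of 9834) and 0.99 in WT cells (1.98-fold, rank 67). A second probe set read 123 in the array labelled KD hypoxia, 132 in the array labelled WT hypoxia, 119 in the array labelled KD normoxia and 98.2 in the array labelled WT normoxia. Its hypoxia minus normoxia difference was smaller, at 0.05 in labelled KD and 0.37 in labelled WT cells. A further LOXL2 probe set read 50.7 in the array labelled KD hypoxia and 53.6 in the array labelled WT hypoxia, against 20.8 and 24.5 in the arrays labelled KD normoxia and WT normoxia, both below the floor.

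By size, P4HA1 was the 1 member of 7 that differed 2-fold or more for labelled KD over WT in normoxia, where 0.854% of the 9834 genes were that much higher and 0.325% that much lower. No member did so for labelled KD over WT in hypoxia, where 0.519% of genes were higher and 0.356% lower. None did in the 2 hypoxia minus normoxia pairs, where 0.600% were higher and 0.569% lower in labelled WT cells, and 0.559% were higher and 0.997% lower in labelled KD cells. None did in the response labelled KD minus the response labelled WT, where 0.691% of genes were that far above 0 and 0.875% that far below. With 7 members, a count of 0 or 1 says little about the group.

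By direction, all 7 members were higher in the array labelled KD normoxia than in the array labelled WT normoxia, with a median of 0.35 against -0.01 over all genes. In the hypoxia pair 6 of 7 were higher in the array labelled KD, with a median of 0.13 against -0.01. Labelled hypoxia exceeded normoxia for 5 of 7 in KD cells (median 0.11, against 0.02 over all genes) and for 7 of 7 in WT cells (median 0.17, against 0.01). Many of these differences are small: outside P4HA1, P4HA2 and PLOD1, the normoxia differences labelled KD minus WT ran from 0.08 to 0.35. The array labelled WT normoxia was the lowest of the 4 for each of the 7 genes, and it enters 2 of these comparisons. The response labelled KD minus the response labelled WT was below 0 for all 7, with a median of -0.13 against 0.01 over all genes. That value also uses the array labelled WT normoxia, and a low intensity there lowers it. The counts of 7 of 7 given here therefore all share the array labelled WT normoxia and are not independent of each other.

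The 4 arrays allow 1 test, an additive limma model of genotype and oxygen label fitted over the 9834 genes, with 1 residual degree of freedom and a variance taken mostly from genes of like intensity. In its genotype term P4HA1 rose by 1.31 (SE 0.17, adjusted p = 0.00547), P4HA2 by 0.52 (SE 0.06, adjusted p = 0.00455) and PLOD1 by 0.46 (SE 0.10, adjusted p = 0.0409). These are 3 of 7 members, where 2.94% of all genes rose and 2.43% fell, and with median centring 486 genes rose and 255 fell against 289 and 239. P4HA1 was higher in the KD array in 2 of 2 pairs, and so were P4HA2 and PLOD1. The same held for LOXL2, LOX and P4HB, which were not called, so this agreement does not set the called genes apart. The 2 differences of P4HA1 (1.75 in normoxia, 0.88 in hypoxia) were less alike than those of P4HA2 (0.56 and 0.47) and PLOD1 (0.52 and 0.39). An additive model does not describe that departure, and the SE of P4HA1 leans mostly on other genes. LOXL2 (0.23, limma adjusted p = 0.120), LOX (0.16, adjusted p = 0.323), PLOD3 (0.09, adjusted p = 0.630) and P4HB (0.05, adjusted p = 0.610) did not pass. With quantile scaling LOXL2 passed too (0.22, limma adjusted p = 0.0332), where 703 of 9850 genes rose and 608 fell. The 3 calls end without the floor (limma adjusted p of 0.163 to 0.217) and without the intensity trend of the prior (adjusted p = 0.232 for each). Under each of these 2 settings the genotype term called 0 rises and 0 falls over all genes, so the loss is not particular to the members.

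In the limma oxygen term LOXL2 rose by 0.86 (SE 0.08, adjusted p = 0.000291) and was higher in the hypoxia array in 2 of 2 pairs. P4HA2, P4HB, PLOD1 and LOX were also higher in the hypoxia array of both pairs, without a call. LOXL2 was the 1 member of 7 called, where 4.72% of all genes rose and 4.17% fell. The call ends without the intensity trend (limma adjusted p = 0.139) and when LOXL2 is taken as the median of its probe sets (0.51, adjusted p = 0.0578). Without the trend, 3 of all 9834 genes rose and 4 fell in the oxygen term. LOX stood at the threshold, with a difference of 0.34 (SE 0.09, limma adjusted p = 0.050012), and passed it under 7 of the 9 other settings listed in the methods for this fit. P4HA1 had an oxygen term of -0.39 (limma adjusted p = 0.213), which averages -0.83 in labelled KD cells and 0.05 in labelled WT cells. With quantile scaling it was a called fall (-0.39, limma adjusted p = 0.00385), where 742 of 9850 genes rose and 775 fell.

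A fit over all 23652 probe sets that reached the floor, chosen after seeing the data, gave limma calls for 9 of 19 member probe sets in the genotype term, all of them rises, where 4.38% of probe sets rose and 4.72% fell. Of the 9, 1 of P4HA1 and 1 of P4HA2 reached the floor in the 2 arrays labelled KD alone. They entered the fit only through the arrays where they are high, so the filter favoured their rises. The other 7 calls, of P4HA1, P4HA2 and PLOD1, were of probe sets above the floor in all 4 arrays. In its oxygen term 3 of 19 rose, 1 each for P4HA2, LOX and LOXL2, where 5.34% rose and 4.92% fell. Probe sets of 1 gene share their RNA and some share sequence, so they are not replicates.

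**Figure D3:**
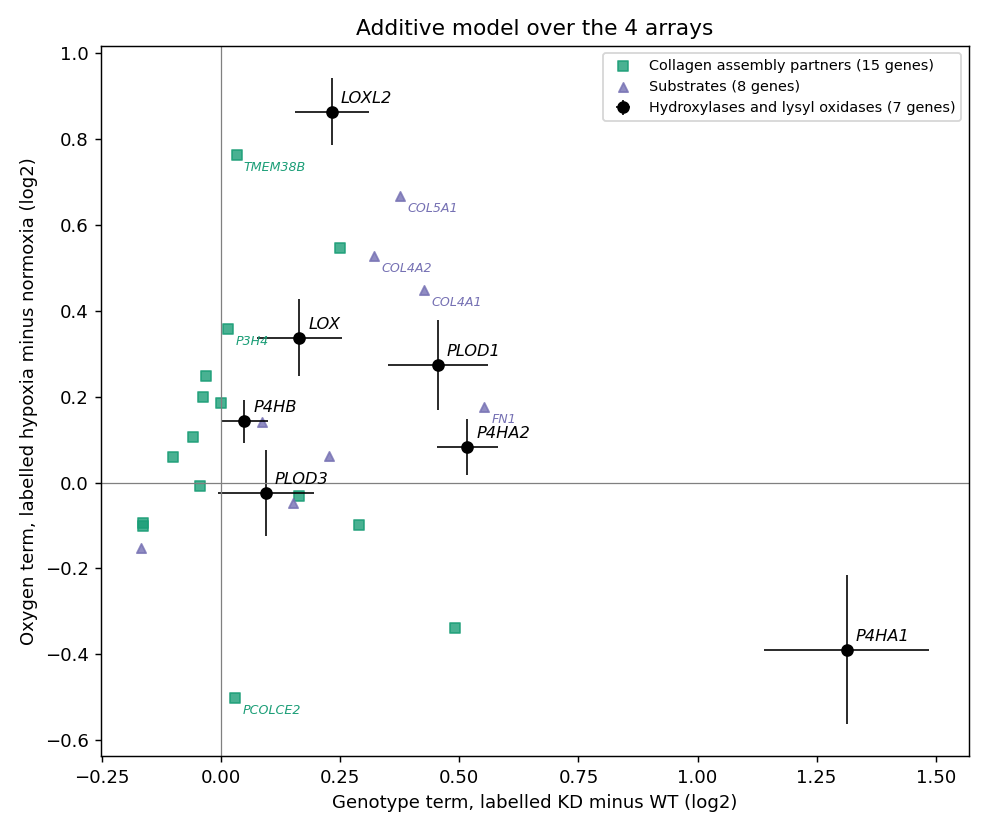
Genotype term (x axis, labelled KD minus WT, log2) against oxygen term (y axis, labelled hypoxia minus normoxia, log2) of the additive limma model, for the 7 members with SE bars and for the collagen assembly partners and substrates that were above the floor in all 4 arrays; names mark members and genes called in either term. P4HA1 lies far right at 1.31, LOXL2 lies high at 0.86, and P4HA2 lies beside FN1.

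Of 20 collagen assembly partners 19 were measured and 16 reached the floor. None was called in the limma genotype term, where 1 had an unadjusted p under 0.05: ERO1A, the oxidase that recharges protein disulfide isomerase. ERO1A read 1719 in the array labelled KD hypoxia, 1523 in the array labelled WT hypoxia, 2717 in the array labelled KD normoxia and 1545 in the array labelled WT normoxia, with a genotype term of 0.49 (limma adjusted p = 0.0599). As for P4HA1, the array labelled KD normoxia was the highest of the 4. For oxygen, TMEM38B, an ion channel of the endoplasmic reticulum, rose by 0.76 (limma adjusted p = 0.00471) and P3H4, a component of a collagen-modifying complex, by 0.36 (adjusted p = 0.0215). PCOLCE2, an enhancer of procollagen cleavage, fell by 0.50 (limma adjusted p = 0.0431). These are 2 rises and 1 fall among the 16 partners, where 4.72% of all genes rose and 4.17% fell. TMEM38B and PCOLCE2 were named after their values were seen.

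Among the bright assembly partners that were not called, PPIB, a proline isomerase, had labelled KD minus WT differences of -0.05 in normoxia and -0.07 in hypoxia. CRTAP, which joins the prolyl 3-hydroxylase complex, had 0.08 and 0.25, the prolyl 3-hydroxylase P3H1 had 0.07 and -0.07, and the procollagen protease BMP1 had -0.12 and -0.08. The median of the 16 partners was 0.00 in both pairs, against -0.01 over all genes. ADAMTS3 reached the floor in the array labelled WT normoxia alone (70.0) and read 32.5, 10.4 and 13.6 in the arrays labelled KD hypoxia, WT hypoxia and KD normoxia. Among the other lysyl oxidases LOXL3 reached the floor in 1 array, with 34.6 in the array labelled KD hypoxia, 55.2 in the array labelled WT hypoxia, 32.2 in the array labelled KD normoxia and 42.5 in the array labelled WT normoxia. LOXL4 lay below the floor in all 4 arrays.

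Of 23 listed substrates 20 were measured and 13 reached the floor. The fibrillar collagen genes COL1A1, COL1A2 and COL3A1 lay below the floor in all 4 arrays, while COL5A2 read between 8498 and 9944. COL4A1, a chain of basement membrane collagen, was called in both limma terms, at 0.43 for genotype (adjusted p = 0.0362) and 0.45 for oxygen (adjusted p = 0.0196). FN1, the fibronectin gene, rose by 0.55 in the genotype term (limma adjusted p = 0.00431). Its intensity was 3672 in the array labelled KD hypoxia, 2601 in the array labelled WT hypoxia, 3379 in the array labelled KD normoxia and 2208 in the array labelled WT normoxia. COL4A2 rose by 0.53 (limma adjusted p = 0.00534) and COL5A1 by 0.67 (adjusted p = 0.0165) in the oxygen term. In all, 2 of the 13 substrates rose in the genotype term and 3 in the oxygen term, and none fell. Over all genes 2.94% rose and 2.43% fell for genotype, and 4.72% rose and 4.17% fell for oxygen. The limma calls among partners and substrates, 2 for genotype and 6 for oxygen, all end without the floor and also without the intensity trend. Few genes were called there at all: 0 for genotype under either setting. For oxygen, 39 genes rose and 38 fell without the floor, and 3 rose and 4 fell without the trend.

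Other substrates and cofactor transporters gave values without a call. ELN, the elastin gene, was 338 in the array labelled KD hypoxia and between 426 and 433 in the other 3. COL4A6 read 76.2, 86.9 and 95.0 in the arrays labelled KD hypoxia, WT hypoxia and KD normoxia and 44.6, below the floor, in the array labelled WT normoxia. COL7A1 reached the floor in the array labelled WT hypoxia alone (54.5). The ascorbate transporter genes were SLC23A1, with a genotype term of 0.20 (limma adjusted p = 0.539), and SLC23A2, with -0.23 (adjusted p = 0.301).

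Markers of the labelled cell type and of others were read in the same arrays. Of 10 epithelial markers 9 were measured, and 8 were above the floor in all 4 arrays, among them EPCAM (9356 to 11319) and KRT18 (12783 to 14418). The E-cadherin gene CDH1 was below the floor in all 4. Each probe set has its own response, so a value below the floor does not show that the mRNA of a marker was absent. In the limma genotype term the tight junction gene TJP1 rose by 0.31 (adjusted p = 0.0250) and the epithelial splicing regulator ESRP1 fell by 0.46 (adjusted p = 0.0286), beside the rises of P4HA1, P4HA2 and PLOD1. In the oxygen term EPCAM rose by 0.23 (limma adjusted p = 0.0134) and TJP1 fell by 0.26 (adjusted p = 0.0358), beside the rise of LOXL2. These are 1 rise and 1 fall among the 8 markers in each term. Over all genes 2.94% rose and 2.43% fell for genotype, and 4.72% rose and 4.17% fell for oxygen. Both genotype calls end without the floor and without the intensity trend, where 0 genes were called in that term.

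Of 8 fibroblast markers 7 lay below the floor in all 4 arrays, COL1A1, COL1A2, COL3A1, DCN and LUM among them, and PDGFRA read 49.0 to 60.5. The summed intensity of the 8, mostly of values below the floor, was 143 in the array labelled KD hypoxia, 169 in the array labelled WT hypoxia, 149.5 in the array labelled KD normoxia and 170.1 in the array labelled WT normoxia. Of 4 leukocyte markers CD68, a lysosomal protein, was above the floor in all 4 arrays, at 237 in the array labelled KD hypoxia, 183 in the array labelled WT hypoxia, 249.99 in the array labelled KD normoxia and 177 in the array labelled WT normoxia. It was higher in the KD array of both pairs, with a genotype term of 0.40 (limma adjusted p = 0.0770). PTPRC and CD14 reached the floor in 2 arrays each and CD3E in none. The 4 leukocyte markers summed to 366, 302, 373 and 324 in that order of arrays.

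Of 4 endothelial markers CDH5 (104 to 178) and KDR (47.3 to 66.1) were above the floor in all 4 arrays, and PECAM1 and VWF were below it in all 4. Their sum was 176 in the array labelled KD hypoxia, 266 in the array labelled WT hypoxia, 229 in the array labelled KD normoxia and 267 in the array labelled WT normoxia. The part of these markers in the differences of the members was not tested. In bulk RNA, fewer cells expressing a gene and less RNA per cell cannot be told apart.

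The profiles nearest to P4HA1 and LOXL2, the 2 members that spanned at least 1 log2 unit, were sought among 8283 genes above the floor in all 4 arrays. Likeness was the Euclidean distance between log2 values centred on each gene's own mean, over 4 arrays. Nearest to P4HA1 were PFKL (distance 0.26), GPI (0.28), C7H1orf21 (0.29), CLCN4 (0.31) and SLC5A3 (0.32). PFKL, a phosphofructokinase, read 1161 in the array labelled KD hypoxia, 647 in the array labelled WT hypoxia, 2143 in the array labelled KD normoxia and 765 in the array labelled WT normoxia. GPI, glucose-6-phosphate isomerase, read 2809.8 in the array labelled KD hypoxia, 1932 in the array labelled WT hypoxia, 6003 in the array labelled KD normoxia and 1885 in the array labelled WT normoxia.

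Nearest to LOXL2 were NIPA1 (distance 0.12), RNF130 (0.14), UCHL1 (0.14), HAUS6 (0.14) and TOMM5 (0.15). UCHL1, a ubiquitin hydrolase, read 2126 in the array labelled KD hypoxia, 2231 in the array labelled WT hypoxia, 1350.0 in the array labelled KD normoxia and 1094 in the array labelled WT normoxia. These profiles rest on 4 points per gene and are given as a description.

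**Figure D4:**
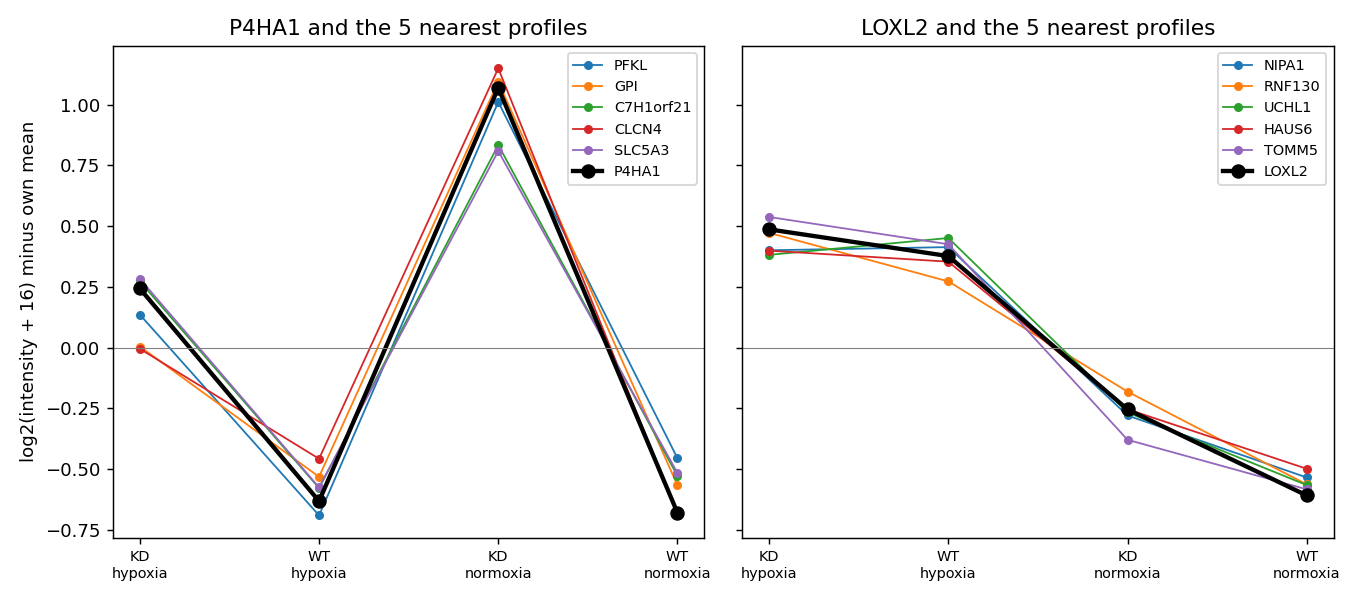
Values of log2(intensity + 16) minus each gene's own mean (y axis) in the 4 arrays (x axis) for P4HA1 (left) and LOXL2 (right), in black, with the 5 nearest genes of each in colour and 1 point per array. The P4HA1 profiles peak in the array labelled KD normoxia, and the LOXL2 profiles are above their mean in both arrays labelled hypoxia.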

How the data were processed

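Each of the 4 samples was 1 array of biotinylated cRNA made from 100 ng of total RNA with a 3' IVT kit, per the labels' protocols. The authors deposited 1 linear intensity per probe set. The sources used here do not say which software, background correction or scaling made it. Medians ran from 45.6 to 47.1 per array, and 1065 to 1129 values per array were exactly 1. Detection calls were not used. The number of arrays limits the precision.

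Of 42924 probe sets, 29254 had 1 gene symbol, 439 several and 13231 none in the platform annotation. Of the first, 27680 had a gene ID in the RefSeq table of a dog assembly, used for names alone. No sequences or coordinates are given, since no genome of a stated build was used. From the deposited intensities, log2(intensity + 16) was computed. A gene was represented by the probe set with the highest mean (15115 genes) and stayed in if at least 1 of its 4 values was at or above the overall median (9834 genes). The additive model was fitted with limma 3.58.1 in R 4.3.3 (lmFit, eBayes with trend, two-sided), with Benjamini-Hochberg adjustment over all genes kept and a threshold of 0.05. It was also run on simulated data with normal errors drawn from its own fitted spread and with no oxygen effect. The model's assumptions held there by construction, so that run does not bear on the calls given here. The model's p-values measure how alike the pairs of differences were, not the spread between cultures. They rest mostly on other genes of like intensity: the prior had 8.1 degrees of freedom, against 1 residual degree for the gene itself. The rest used Python 3.11.15.

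The members and lists were chosen with earlier results of these data known. Named were all members, HIF1A, listed pathway genes that differed at least 2-fold, up to 6 more per list by intensity, and the 5 nearest profiles of members spanning at least 1 log2 unit. The alternatives were 3 scalings, pseudocounts of 1 and 64, no floor, a floor at the 75th percentile, the median over probe sets, a 3-fold threshold and no intensity trend.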

Additional observations from a re-analysis of the deposited data

Results flagged for a closer look

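With 1 array per group, any gene whose labelled difference has opposite signs in the other genotype or oxygen label is listed here. None of these differences between groups was tested, and measurement error alone gives small values of opposite sign. Of 37 named genes, 16 had such signs, in 20 pairs of differences (10 of genotype and 10 of oxygen), and 3 of these pairs were at least 1.5-fold each way. Those 3 belong to ADAMTS3 and COL7A1, which were below the floor in 3 arrays each. The share of all genes with opposite signs was not counted, so these counts have no reference. Some pathway genes were named for a 2-fold difference or a limma call in these data. The nearest profiles were chosen for their likeness to P4HA1 or LOXL2, so their signs partly follow from that choice. The value in parentheses, or given alone, is the hypoxia minus normoxia difference (log2) of labelled KD cells minus that of labelled WT cells.

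Among the members, P4HA1 had oxygen responses of -0.83 in labelled KD cells and 0.05 in labelled WT cells (-0.87). PLOD3 had genotype differences of 0.20 in normoxia and -0.01 in hypoxia, and oxygen responses of -0.13 in KD and 0.08 in WT cells (-0.21). Among collagen pathway genes above the floor in all arrays, the value was 0.17 for CRTAP, 0.13 for P3H4, -0.14 for P3H1, 0.17 for TMEM38B, -0.35 for ELN, -0.14 for SLC23A2 and 0.064 for SLC23A1. With a value below the floor, so that no size was measured, it was 2.41 for ADAMTS3, -1.03 for COL4A6 and -1.23 for COL7A1. Among the nearest profiles it was -1.13 for GPI, -1.38 for CLCN4, -0.27 for NIPA1 and -0.37 for UCHL1.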

How the results depend on the processing

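The count of members at least 2-fold apart in each comparison, and in the response labelled KD minus the response labelled WT, had the same value under the 9 other settings tried for it. The limma genotype calls (3 members) became 4 with quantile scaling, with LOXL2 added, and 0 without the floor and 0 without the intensity trend, where 4 and 3 members had an unadjusted p under 0.05. Over all genes the genotype calls were 703 rises and 608 falls with quantile scaling, and 0 without the floor or without the trend. The limma oxygen calls (1 member) became 3 with quantile scaling (LOXL2 and LOX as rises and P4HA1 as a fall), 0 without the trend (3 with an unadjusted p under 0.05), and 2 with median centring, cyclic loess, a pseudocount of 1 or 64, a floor at the 75th percentile and the fit over all probe sets. Over all genes the oxygen calls rose too, to 742 rises and 775 falls with quantile scaling, against 464 and 410 as reported. With median centring, cyclic loess or either other pseudocount they ran from 505 to 575 rises and 454 to 638 falls. With the floor at the 75th percentile they were 449 and 398 of 5398 genes, and without the trend 3 and 4. With the median over probe sets the member count for oxygen stayed at 1, where 445 of 8452 genes rose and 438 fell. There LOX was called (0.34, limma adjusted p = 0.0223) in place of LOXL2 (0.51, adjusted p = 0.0578). With quantile scaling the prior had no finite degrees of freedom, so no gene's own variance entered its p-values. With the median over probe sets, 3 limma terms that had not passed changed sign: LOXL2 for genotype (-0.011), PLOD1 for oxygen (-0.10) and PLOD3 for oxygen (0.022). That alternative mixes dim probe sets into a gene, and it alone moved differences of members by more than the model's error of a difference (17 values, against 263 that moved by less under any setting). It gave P4HA1 a difference of 1.17 between the arrays labelled KD normoxia and WT normoxia, against 1.75. Over all genes, the counts at least 2-fold apart followed the pseudocount, floor and threshold: for labelled KD minus WT from 18 to 143 higher and 5 to 77 lower in normoxia (84 and 32 as reported), and from 3 to 99 and 4 to 94 in hypoxia (51 and 35). For labelled hypoxia minus normoxia they ran from 9 to 109 higher and 17 to 102 lower in WT cells (59 and 56) and from 7 to 104 and 26 to 159 in KD cells (55 and 98), and for the difference of the responses from 4 to 256 and 14 to 284 (68 and 86). The limma calls over all genes ran from 0 to 703 rises and 0 to 608 falls for genotype (289 and 239) and from 3 to 742 and 4 to 775 for oxygen (464 and 410). No paired analysis was possible because each group has 1 array and so no replicate numbers to pair, although the additive fit itself compares genotype within each oxygen label and oxygen within each genotype label.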
